A study of Mus musculus with 24 samples.

Results

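Leukocytes leave the blood by holding on to molecules that stand on the luminal face of the endothelium. Expression of 8 genes of this kind was followed here in brain microvessels of mice after transient middle cerebral artery occlusion (tMCAO). They are P-selectin (Selp), E-selectin (Sele), the selectin ligand PSGL-1 (Selplg), the immunoglobulin family members Icam1, Icam2 and Vcam1, and the cell adhesion molecules Mcam (CD146) and Alcam (CD166). The genes were taken by name, with no measured value in the rule, though they were chosen with earlier results of these data known. All 8 were found among the 17270 genes of the table. All 8 also passed the filter on low values, which asked for more than 5 normalized counts on average and left 15982 genes for testing.

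Microvessels were isolated from male C57Bl/6J mice, 10 to 12 weeks old at surgery, after perfusion of the blood from the vessels. In the tMCAO groups a filament closed the right middle cerebral artery for 60 min before reperfusion, whereas in the sham groups it was drawn back as soon as it had reached the artery's branching point, so that ligation of the carotid arteries and anesthesia were common to all groups. The ipsilateral (right) and contralateral (left) hemispheres were taken apart 24 h or 7 days after surgery, which gave 8 groups with 3 libraries each: sham ipsilateral, sham contralateral, tMCAO ipsilateral and tMCAO contralateral at both time points. Each library was made from microvessels pooled from 3 hemispheres of one kind, and every hemisphere went in whole, so that infarcted, bordering and intact tissue of an occluded side were mixed.

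Capture of a leukocyte proceeds in steps. Selectins on the endothelium bind carbohydrate-bearing ligands such as PSGL-1 on passing leukocytes and let them tether and roll. P-selectin is held ready in the storage granules of endothelial cells and platelets, and in mice its gene, like that of E-selectin, is also turned on by inflammatory cytokines. The rolling cell is then activated by chemokines and stops when its integrins bind immunoglobulin family ligands: the beta2 integrins LFA-1 and Mac-1 bind ICAM-1, LFA-1 binds ICAM-2, and the alpha4 beta1 integrin VLA-4 binds VCAM-1. ICAM-2 is carried by resting endothelium, whereas ICAM-1 and VCAM-1 are the textbook examples of ligands induced by TNF and interleukin-1. MCAM sits at endothelial junctions and on pericytes and smooth muscle, and ALCAM binds CD6 on T cells and is also made by neurons.

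The labelled tissue was borne out by its markers. The 10 endothelial markers, among them Cldn5, Cdh5 and Flt1, were at 3577 normalized counts or more in every library. The libraries summed to between 15924780 and 18787932 normalized counts (median 16953257.5), and the log2 values of replicate libraries correlated with r from 0.967 to 0.988 across genes. Markers of other cell types differed with surgery at 24 h ipsilaterally, some upward and others downward. The summed level of 10 neutrophil and monocyte markers was 287 to 1272 in the sham ipsilateral libraries at 24 h and 3423 to 6622 in the tMCAO ipsilateral ones, and all 8 markers of that list that passed the filter were regulated upward, while 3 of the 10, Ly6g, Camp and Ngp, were at 0 in some library. In these bulk samples fewer cells of a type and less RNA per cell cannot be told apart.

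Compared per transcript length, the 8 genes fell into a high and a low tier. Icam2, Mcam and Vcam1 had the most reads per kilobase of their longest transcript, Icam1 followed, and Alcam, Selplg and both selectins were lowest. In the sham ipsilateral libraries at 24 h, Mcam reached 2428 ± 298 normalized counts per kilobase (SD, n = 3), Icam2 2154 ± 65.6, Vcam1 1940 ± 254 and Icam1 736 ± 136. The same group held 88.0 ± 9.75 of Alcam, 69.1 ± 35.8 of Selplg, 39.4 ± 26.8 of Selp and 35.5 ± 25.6 of Sele. Neighbours within the high tier differed by about as much as their libraries did, and so did Selplg, Selp and Sele. In the ipsilateral hemisphere 24 h post-stroke the level per kilobase of Selp was 758 ± 73.6 and that of Sele 323 ± 64.6, which placed both above Selplg at 151 ± 57.1 and Alcam at 58.8 ± 12.5. The order within the high tier was not fixed, because dividing by all annotated exon bases in place of the longest transcript lowered Vcam1 to 894 and Icam2 to 1450 in the sham ipsilateral libraries at 24 h, but Mcam only to 2166.

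**Figure D1:**
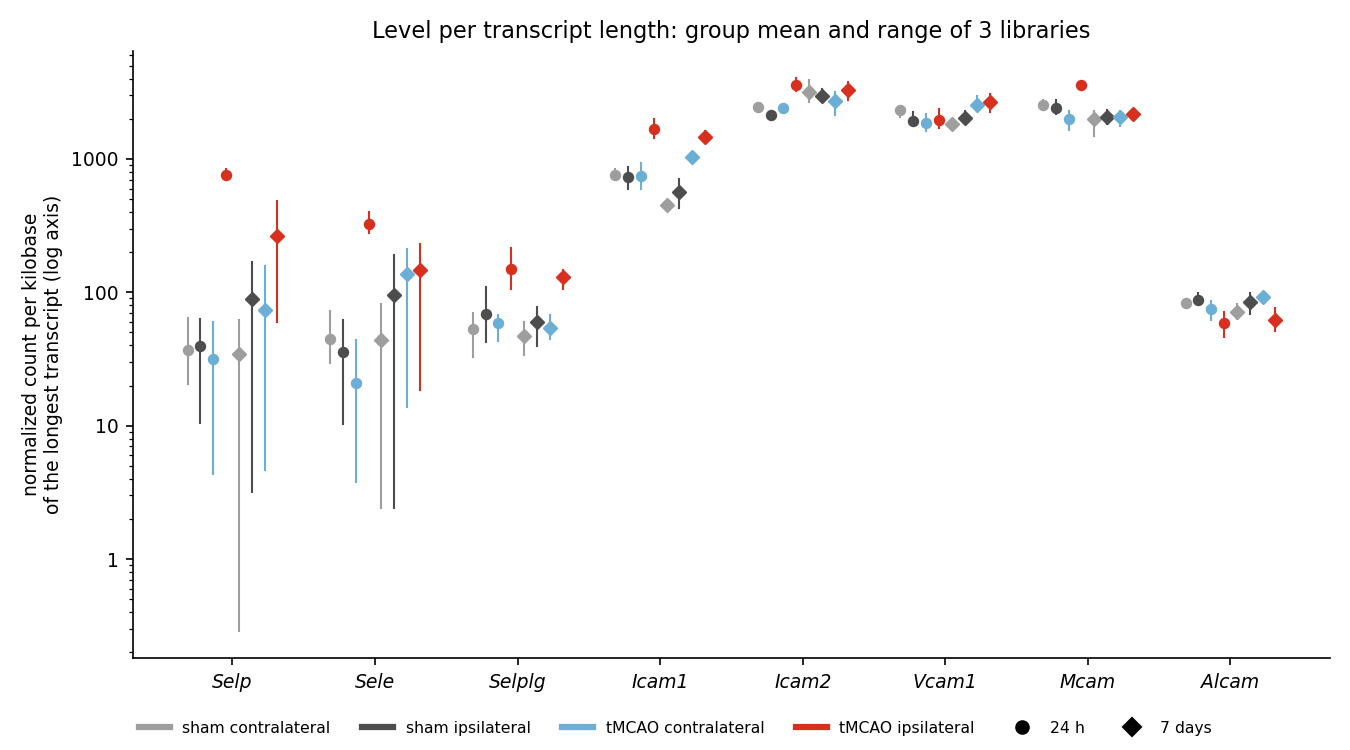
Level of each gene in the 8 groups, as normalized counts per kilobase of its longest transcript on a log axis; points are group means, circles 24 h and diamonds 7 days, and lines run from the lowest to the highest of 3 libraries. Icam2, Vcam1 and Mcam stayed within a narrow band, whereas the lines of Selp and Sele span the widest range, and both stood at their highest mean in the tMCAO ipsilateral group at 24 h.

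At 24 h post-stroke the adhesion molecules changed in the ipsilateral hemisphere in both directions. Selp, Selplg, Icam1 and Icam2 rose against sham, Alcam fell, and Sele, Vcam1 and Mcam did not pass the test. A gene is called regulated here when its p-value, adjusted over all 15982 genes by the Benjamini-Hochberg method after a limma fit on log2(normalized count + 1), was under 0.05 and its log2 fold change stood for more than 1.5-fold in either direction. By that rule 4 of the 8 genes were higher, where 10% of all tested genes were, and 1 of 8 was lower, where 8.23% were. The libraries of the 2 groups did not overlap for 5 of the 8 upward and for 1 downward, against 25% and 24.1% of all genes. Libraries that do not overlap were thus common, as they also were among all genes for tMCAO against sham ipsilaterally at 7 days (30%), for ipsilateral against contralateral after tMCAO (40.8% at 24 h and 25.3% at 7 days) and for 7 days against 24 h in the tMCAO ipsilateral libraries (34.2%). Over all genes 1603 were higher and 1316 lower at 24 h (18.3% in all), a balance that rested on the scaling: with each library centred on its own median they were 1330 and 1707, and with each centred on the endothelial markers 2056 and 705.

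**Figure D2:**
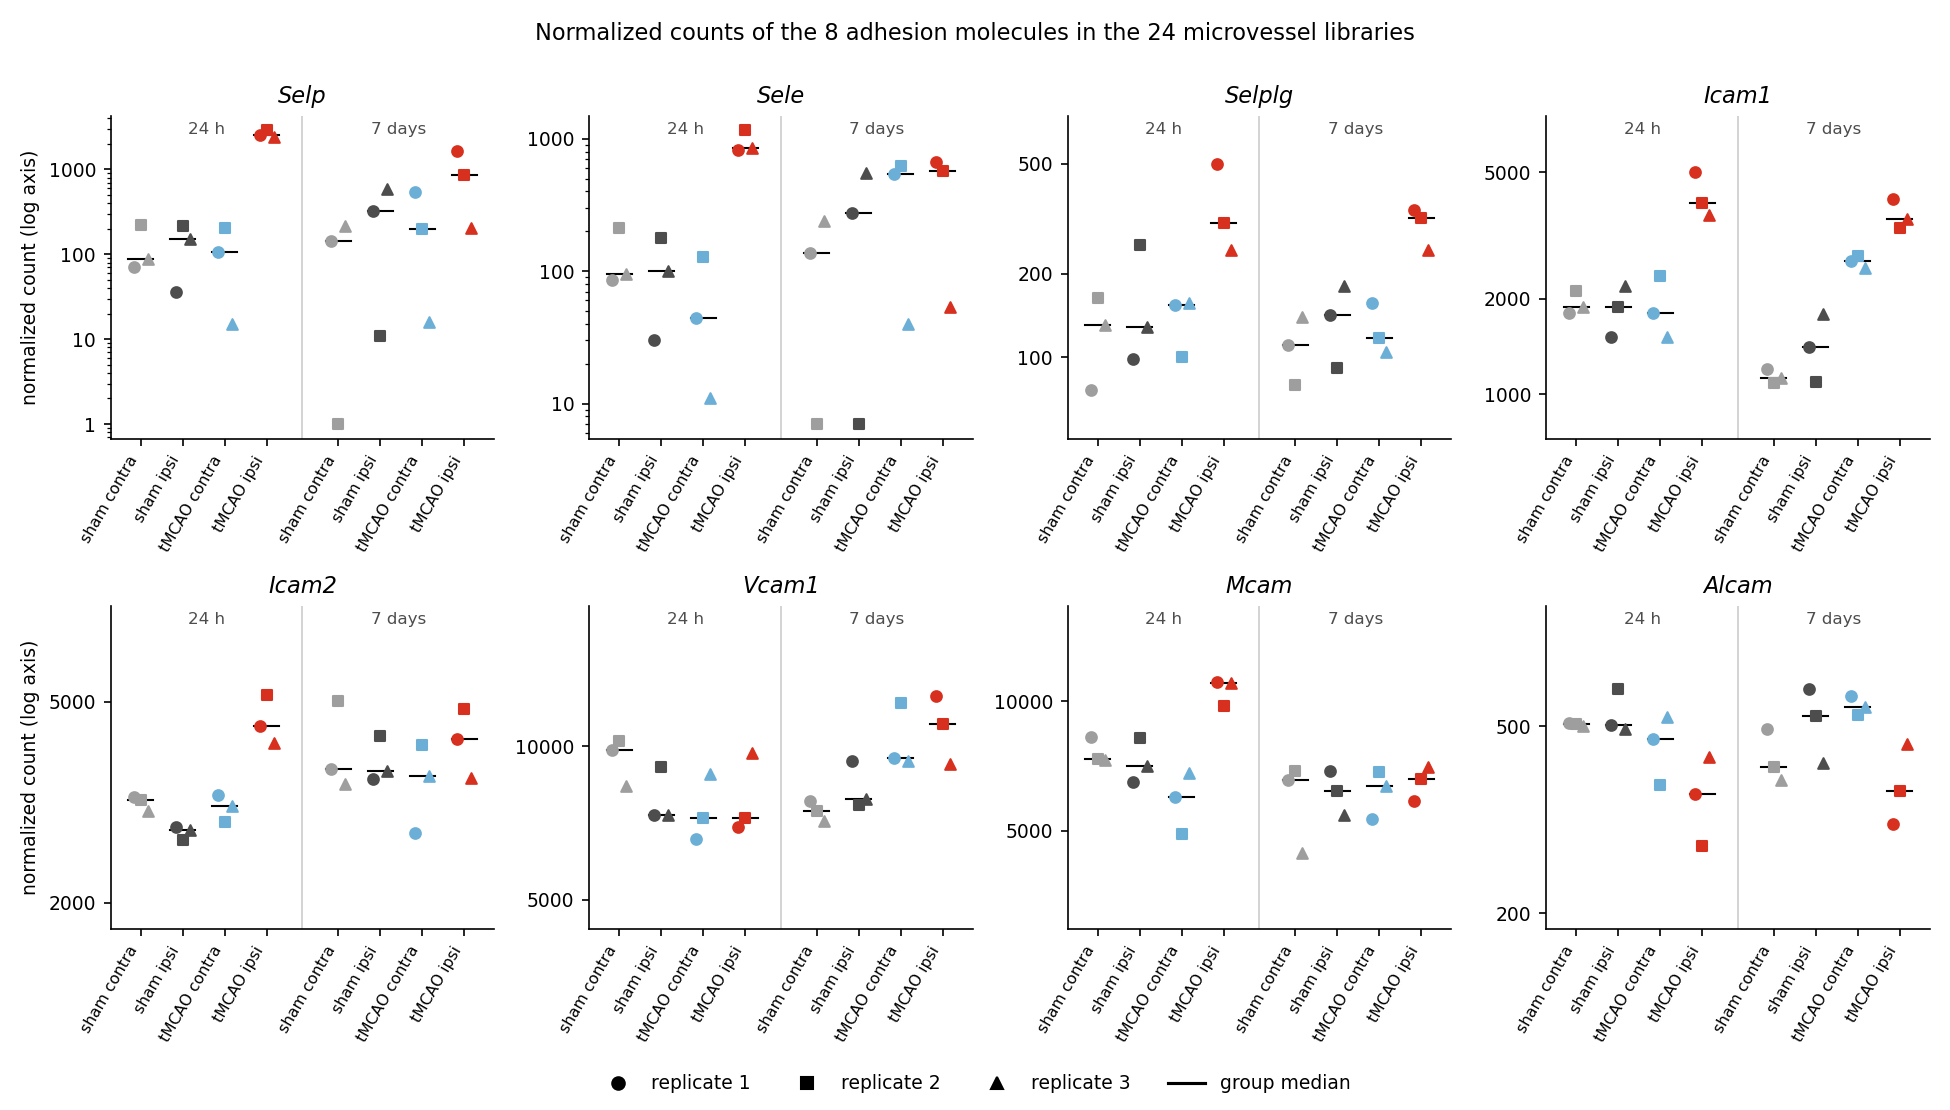
Normalized counts of the 8 genes in each of the 24 libraries on log axes, 1 panel per gene, with the 24 h groups on the left and the 7 days groups on the right of the vertical line; symbols give the replicate number and the black bars the group medians. The tMCAO ipsilateral libraries (red) stood above all other 24 h libraries for Selp, Sele, Icam1, Icam2 and Mcam, and the libraries of Selp and Sele were spread widest within their groups.

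P-selectin showed the largest rise of the 8. Selp stood at 36, 218 and 152 normalized counts in the sham ipsilateral libraries at 24 h and at 2519, 2890 and 2406 in the tMCAO ipsilateral ones. All tMCAO libraries were thus higher than every sham library, and higher than the 221 counts that were the most in any contralateral library at 24 h. The log2 fold change was 4.60 ± 1.60 (SE), 24.2-fold, with an adjusted p of 0.0358 and a 95% confidence interval from 1.25 to 7.94. The error was wide because the fit shares its spread over the 8 groups, and Selp varied within groups by a pooled SD of 2.19 on the log2 scale, more than 99.9% of the tested genes. With only the compared groups in the fit the SE was 0.57 and the adjusted p 0.00191. limma draws that SE toward the spread of other genes, and the log2 values of Selp had an SD of 1.36 in the sham and 0.14 in the tMCAO libraries. Leaving out single libraries from the shared fit gave log2 fold changes between 3.83 and 5.11, and the adjusted p rose above the threshold on leaving out any of them except sham ipsilateral replicate 2, from 0.0613 without sham ipsilateral replicate 3 to 0.138 without sham ipsilateral replicate 1. Platelets carry P-selectin too, and the summed level of 6 platelet markers was 246 to 546 in the sham and 661 to 791 in the tMCAO ipsilateral libraries, with 2 of the 5 that passed the filter regulated upward and Gp9 and Gp6 at 0 in some library. The part of platelets in the Selp result was not tested.

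E-selectin was higher in every tMCAO library at 24 h but short of the test. Sele stood at 30, 179 and 101 normalized counts in the sham ipsilateral libraries at 24 h and at 816, 1156 and 846 after tMCAO. No sham library came near the tMCAO ones. Its log2 fold change of 3.49 ± 1.46 (SE), 11.2-fold, did not pass the test with an adjusted p of 0.0756 in the fit over all groups (95% confidence interval 0.44 to 6.53), whereas with only the compared groups in the fit the SE was 0.55 and the adjusted p 0.00402. The smaller SE is again drawn toward the spread of other genes, and the log2 values of Sele had an SD of 1.30 in the sham and 0.28 in the tMCAO libraries. Against the contralateral hemisphere of the same surgery, with 44, 128 and 11 counts, Sele was regulated, with a log2 fold change of 4.50 ± 1.46 and an adjusted p of 0.0295. That call was lost on leaving out any single library but contralateral replicate 2, with adjusted p up to 0.130 without contralateral replicate 3.

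Selp and Sele are near neighbours in the genome. In the mm10 coordinates of the table Sele (ENSMUSG00000026582) spans chr1:164048234-164057677 and Selp (ENSMUSG00000026580) chr1:164115264-164150026, both on the plus strand, with 57586 bases between them. Since the pair moved together, the 150 bases upstream of each RefSeq start (GRCm38.p6) are given here, from 5′ to 3′, with the match to the AP-1 motif TGANTCA in capitals.
Selp: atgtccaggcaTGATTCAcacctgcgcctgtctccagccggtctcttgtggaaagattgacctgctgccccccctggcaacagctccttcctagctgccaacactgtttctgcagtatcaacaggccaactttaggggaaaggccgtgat
Sele: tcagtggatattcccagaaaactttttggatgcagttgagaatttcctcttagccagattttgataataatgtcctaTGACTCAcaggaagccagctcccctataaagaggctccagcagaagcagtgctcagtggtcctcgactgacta
The Selp stretch covers chr1:164115114-164115263 and its match lies 139 to 133 bases before the start, and the Sele stretch covers chr1:164048084-164048233 with its match 73 to 67 bases before the start. The motif was searched on both strands from 250 bases before to 50 after the start, and being palindromic it was counted once per place. Of all 32851 RefSeq windows 7.81% held it. Windows were at hand for 5 of the 8 genes, and those of Icam1, Mcam and Alcam had no match. None of the 5 matched the NF-kappaB consensus as searched, GGGRNWYYCC (R a purine, N any base, W A or T, Y a pyrimidine), which 4.51% of all windows did. Such a match is a description of letters and shows no binding. A site that departs from the pattern in any letter is missed, so the lack of a match does not show that a site is absent.

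Both selectins varied together from library to library. Selp ranged from 1 to 2890 and Sele from 7 to 1156 normalized counts over the 24 libraries, and libraries low in Selp were low in Sele: across the 24 libraries their log2 values correlated with r = 0.935, and across the 18 libraries other than the tMCAO ipsilateral ones with r = 0.924, a description, since libraries of 1 group share their treatment. Low and high values also went with the replicate number. Sham replicate 2 at 7 days had 1 Selp count in the contralateral and 11 in the ipsilateral library, and 7 Sele counts in both, while sham replicate 3 had 214 and 582 of Selp and 238 and 550 of Sele. After tMCAO at 7 days replicate 3 was the low one on both sides, with 16 and 205 of Selp and 40 and 54 of Sele. The labels do not say whether equally numbered hemispheres came from the same mice. The neutrophil and monocyte markers also varied within the sham groups, from 231 to 1331 contralaterally and from 314 to 1814 ipsilaterally at 7 days, and the sum of 5 choroid plexus markers from 2675 to 42815 and from 15763 to 28947. Their part in the spread of the selectins was not tested.

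**Figure D3:**
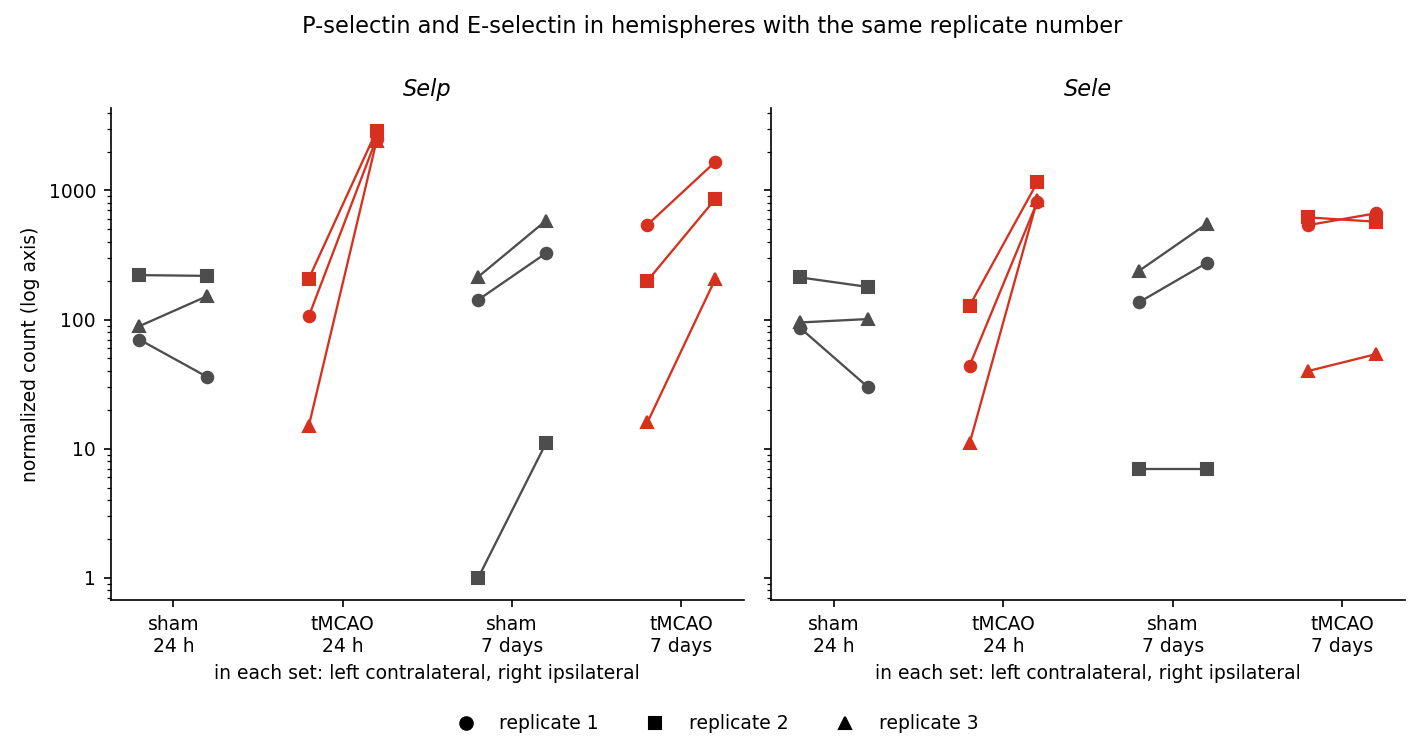
Normalized counts of Selp and Sele on a log axis; each line joins the contralateral (left) and the ipsilateral (right) library with the same replicate number, gray for sham and red for tMCAO. At 24 h after tMCAO the lines climb from between 15 and 207 to between 2406 and 2890 for Selp. At 7 days after tMCAO they climb for Selp but run nearly flat for Sele, and the sham lines of 7 days climb for Selp as well.

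Within the pair, the share of P-selectin differed. The ratio of Selp to Sele counts, which sets aside what both genes have in common, was 1.20 to 1.50 in the sham ipsilateral libraries at 24 h and 2.50 to 3.09 in the tMCAO ipsilateral ones. At 7 days it was 1.06 to 1.57 in the sham and 1.49 to 3.80 in the tMCAO ipsilateral libraries. In the contralateral libraries it was 0.81 to 1.04 after sham and 1.36 to 2.41 after tMCAO at 24 h, and 0.14 to 1.04 after sham and 0.32 to 1.01 after tMCAO at 7 days.

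At 7 days the selectins did not pass the test against sham or against the contralateral hemisphere in the main fit, which did not pair the hemispheres. Against the contralateral hemisphere Selp did pass in a fit with same-numbered hemispheres as the block, given with the alternatives below. Selp stood at 326, 11 and 582 normalized counts in the sham ipsilateral libraries and at 1660, 855 and 205 after tMCAO. The highest sham library exceeded the lowest tMCAO library. The log2 fold change was 2.33 ± 1.60 (SE, adjusted p = 0.365, 95% confidence interval -1.01 to 5.68). Sele stood at 274, 7 and 550 in the sham and at 665, 572 and 54 in the tMCAO ipsilateral libraries, with a log2 fold change of 1.37 ± 1.46 (adjusted p = 0.589). Against the contralateral libraries of tMCAO, with 542, 200 and 16 of Selp, the log2 fold change of Selp was 2.43 ± 1.60 (adjusted p = 0.372) and that of Sele 0.20 ± 1.46 (adjusted p = 0.957), and the ipsilateral library had more Selp than the contralateral one of the same number in all 3 cases. The same held after sham at 7 days, with 142, 1 and 214 Selp counts contralaterally against 326, 11 and 582 ipsilaterally. The intervals of the fold changes at 7 days are too wide to tell a return to the sham level from a persisting rise. Between 24 h and 7 days the tMCAO ipsilateral libraries of 7 days were lower without overlap for both selectins, Selp by a log2 fold change of -1.97 ± 1.60 (adjusted p = 0.419) and Sele by -1.75 ± 1.46 (adjusted p = 0.430), neither of which passed.

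The selectin ligand was regulated upward at both time points. Selplg encodes PSGL-1, which is carried mainly by leukocytes, and had 98, 254 and 128 normalized counts in the sham ipsilateral libraries at 24 h against 497, 304 and 244 after tMCAO. One sham library lay above the lowest tMCAO library. On the log2 scale the fold change was 1.17 ± 0.36 (SE) with an adjusted p of 0.0179. At 7 days there were 142, 91 and 181 counts in the sham and 341, 319 and 244 in the tMCAO ipsilateral libraries, without overlap, and the log2 fold change was 1.16 ± 0.36 (adjusted p = 0.0281). These calls leaned on single libraries. At 24 h the adjusted p became 0.108 without sham replicate 1, 0.0609 without sham replicate 3 and 0.104 without tMCAO replicate 1, and at 7 days 0.0554 and 0.141 without sham replicates 1 and 2, 0.104 and 0.0717 without tMCAO replicates 1 and 2. With the libraries centred on the endothelial markers the call at 7 days was lost as well (log2 fold change 1.09, adjusted p = 0.0783). At 7 days the neutrophil and monocyte markers summed to 314 to 1814 in the sham and 892 to 4913 in the tMCAO ipsilateral libraries with 2 of 8 regulated upward, and 6 T cell markers to 30 to 73 and 47 to 91. Whether the leukocytes themselves carried the Selplg transcripts was not tested. Selplg (ENSMUSG00000048163) lies at chr5:113818547-113830501 on the minus strand (mm10).

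Icam1 rose at both time points. This ligand of LFA-1 and Mac-1 had 1512, 1884 and 2199 normalized counts in the sham ipsilateral libraries at 24 h and 5027, 4004 and 3661 in the tMCAO ipsilateral ones. Each tMCAO library was above each sham library. The log2 fold change was 1.18 ± 0.17 (SE), 2.27-fold, with an adjusted p of 5.89e-05. At 7 days the sham libraries held 1412, 1095 and 1788 and the tMCAO libraries 4118, 3345 and 3572, again without overlap, with a log2 fold change of 1.38 ± 0.17, 2.61-fold (adjusted p = 1.64e-05). Both calls held on leaving out any single library. The difference between the effects at 7 days and at 24 h was 0.20 ± 0.24 on the log2 scale (95% confidence interval -0.31 to 0.71, adjusted p = 0.648). In the mm10 coordinates of the table Icam1 (ENSMUSG00000037405) spans chr9:21015985-21028817 on the plus strand.

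Icam1 was also regulated on the contralateral side at 7 days. The contralateral libraries held 1199, 1087 and 1129 normalized counts after sham and 2625, 2726 and 2495 after tMCAO, which are narrow and well apart, with a log2 fold change of 1.20 ± 0.17 (SE, adjusted p = 0.00761). Only 5 of the 15982 genes were regulated in this comparison, 0.0313% in either direction, 0.025% upward and 0.00626% downward, and Icam1 was the single one of the 8. The libraries of 9.8% of all genes did not overlap. At 24 h the corresponding values overlapped, with 1806, 2119 and 1882 after sham and 1804, 2364 and 1518 after tMCAO (log2 fold change -0.05 ± 0.17). The contralateral levels at 7 days lay on either side of those at 24 h: from 24 h to 7 days the sham contralateral libraries stood lower by a log2 fold change of -0.76 ± 0.17 (adjusted p = 0.0579, not past the threshold), whereas the tMCAO contralateral libraries stood 0.49 ± 0.17 higher (adjusted p = 0.175). The difference of the contralateral effect, 7 days minus 24 h, a contrast added after the values had been seen, was 1.25 ± 0.24 with an unadjusted p of 5.1e-05 and did not pass once adjusted over all genes. No gene passed in that contrast with limma, and 773 (4.84%) had an unadjusted p under 0.05. The call at 7 days was lost with only the compared groups in the fit (adjusted p = 0.056), without sham contralateral replicate 2 (0.0857) and without tMCAO contralateral replicate 1 (0.058). On the tMCAO side Icam1 was 1.40-fold higher ipsilaterally than contralaterally at 7 days without overlap, at a log2 fold change of 0.49 ± 0.17 that did not pass (adjusted p = 0.0608), against 2.25-fold at 24 h (1.17 ± 0.17, adjusted p = 8.36e-05).

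Icam2 passed the test at 24 h and not at 7 days. This ligand of LFA-1 on resting endothelium stood at 2826, 2666 and 2791 normalized counts in the sham and at 4481, 5154 and 4137 in the tMCAO ipsilateral libraries. The sham libraries lay close together and well below the tMCAO ones. The log2 fold change was 0.73 ± 0.15 (SE), 1.66-fold, with an adjusted p of 0.00117, and the call held on leaving out any single library. At 7 days the values were 3515, 4279 and 3640 in the sham and 4218, 4833 and 3528 in the tMCAO ipsilateral libraries and overlapped (log2 fold change 0.13 ± 0.15, 95% confidence interval -0.18 to 0.44, adjusted p = 0.615). The effect was smaller at 7 days by -0.60 ± 0.21 on the log2 scale, which missed the threshold (adjusted p = 0.0731). The sham ipsilateral libraries of 7 days were all above those of 24 h, a change that did not pass (0.46 ± 0.15, adjusted p = 0.16). The libraries of 22% of all genes did not overlap in that comparison. Icam2 (ENSMUSG00000001029) lies at chr11:106377656-106382781 on the minus strand (mm10).

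Vcam1 (ENSMUSG00000027962, mm10 chr3:116109949-116129688, minus strand), the ligand of VLA-4, did not pass the test against sham. The sham ipsilateral libraries at 24 h held 7341, 9129 and 7321 normalized counts and the tMCAO ones 6950, 7236 and 9718. The groups lay on top of each other, and the 95% confidence interval of the log2 fold change ran from -0.33 to 0.32 (adjusted p = 0.994), which lies within the fold limit on both sides. At 7 days there were 9378, 7671 and 7871 counts in the sham and 12576, 11045 and 9245 in the tMCAO ipsilateral libraries (log2 fold change 0.39 ± 0.16 SE, 95% confidence interval 0.07 to 0.72, adjusted p = 0.0912). In the contralateral libraries at 7 days Vcam1 was higher after tMCAO, with 9495, 12168 and 9358 against 7810, 7476 and 7137 in sham, without overlap but short of the test (0.46 ± 0.16, adjusted p = 0.367). Within the tMCAO ipsilateral hemisphere it stood 0.46 ± 0.16 higher at 7 days than at 24 h, with an adjusted p of 0.0408 but a size under the fold limit.

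Mcam (ENSMUSG00000032135, mm10 chr9:44134562-44142727, plus strand), a junctional molecule of endothelium and mural cells, did not pass the test against sham ipsilaterally at either time, though its libraries did not overlap at 24 h. It stood at 6485, 8231 and 7054 normalized counts in the sham and at 11103, 9773 and 11043 in the tMCAO ipsilateral libraries at 24 h. All tMCAO libraries were higher. With a log2 fold change of 0.56 ± 0.16 (SE) the rise had an adjusted p of 0.0117 but stayed just under the fold limit, which it passed without sham ipsilateral replicate 2 (0.65), without tMCAO ipsilateral replicate 2 (0.62) and with endothelial centring (0.67). Against the contralateral libraries of tMCAO, at 5993, 4925 and 6821, it was regulated with a log2 fold change of 0.86 ± 0.16 (adjusted p = 0.000566). The contralateral libraries of tMCAO were themselves all below the sham contralateral ones, at 8246, 7355 and 7318, by -0.38 ± 0.16 (adjusted p = 1). At 7 days the tMCAO ipsilateral libraries held 5869, 6594 and 7035 and the sham ones 6903, 6188 and 5453 (0.08 ± 0.16, adjusted p = 0.801). The sham ipsilateral mean was itself lower at 7 days, 6181 against 7257 at 24 h, with overlapping libraries. The difference between the tMCAO effects at 7 days and 24 h did not pass its test. From 24 h to 7 days Mcam fell by 0.71 on the log2 scale (SE 0.16, adjusted p = 0.00365) in the tMCAO ipsilateral hemisphere, and it was the single member regulated between the time points, in a comparison where 12.2% of all genes were regulated, 3.72% upward and 8.44% downward. The 9 markers of pericytes and smooth muscle, which also carry MCAM, averaged 0.37 lower on the log2 scale in the tMCAO than in the sham ipsilateral libraries at 24 h, with overlapping libraries and 1 of 9 regulated downward. Their part in the Mcam result was not tested.

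Alcam (ENSMUSG00000022636, mm10 chr16:52248996-52454074, minus strand) was the single member regulated downward against sham. It had 503, 599 and 492 normalized counts in the sham and 358, 278 and 429 in the tMCAO ipsilateral libraries at 24 h. The tMCAO libraries were all lower. This amounted to a log2 fold change of -0.60 ± 0.17 (SE) with an adjusted p of 0.0121. The call was lost without sham ipsilateral replicate 2 (-0.51, adjusted p = 0.0566), without tMCAO ipsilateral replicate 2 (-0.43, adjusted p = 0.0841) and with endothelial centring (-0.49, adjusted p = 0.079). At 7 days the values were 600, 524 and 417 against 309, 364 and 458, a log2 fold change of -0.45 ± 0.17 that did not pass (adjusted p = 0.0761). Neurons make ALCAM as well, and 6 neuronal markers summed to 5803 to 7140 in the sham and 2411 to 3822 in the tMCAO ipsilateral libraries at 24 h, where 4 of 6 were regulated downward and none was at 0, and to 7631 to 11914 and 2616 to 3143 at 7 days. Their part in the Alcam result was not tested.

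**Figure D4:**
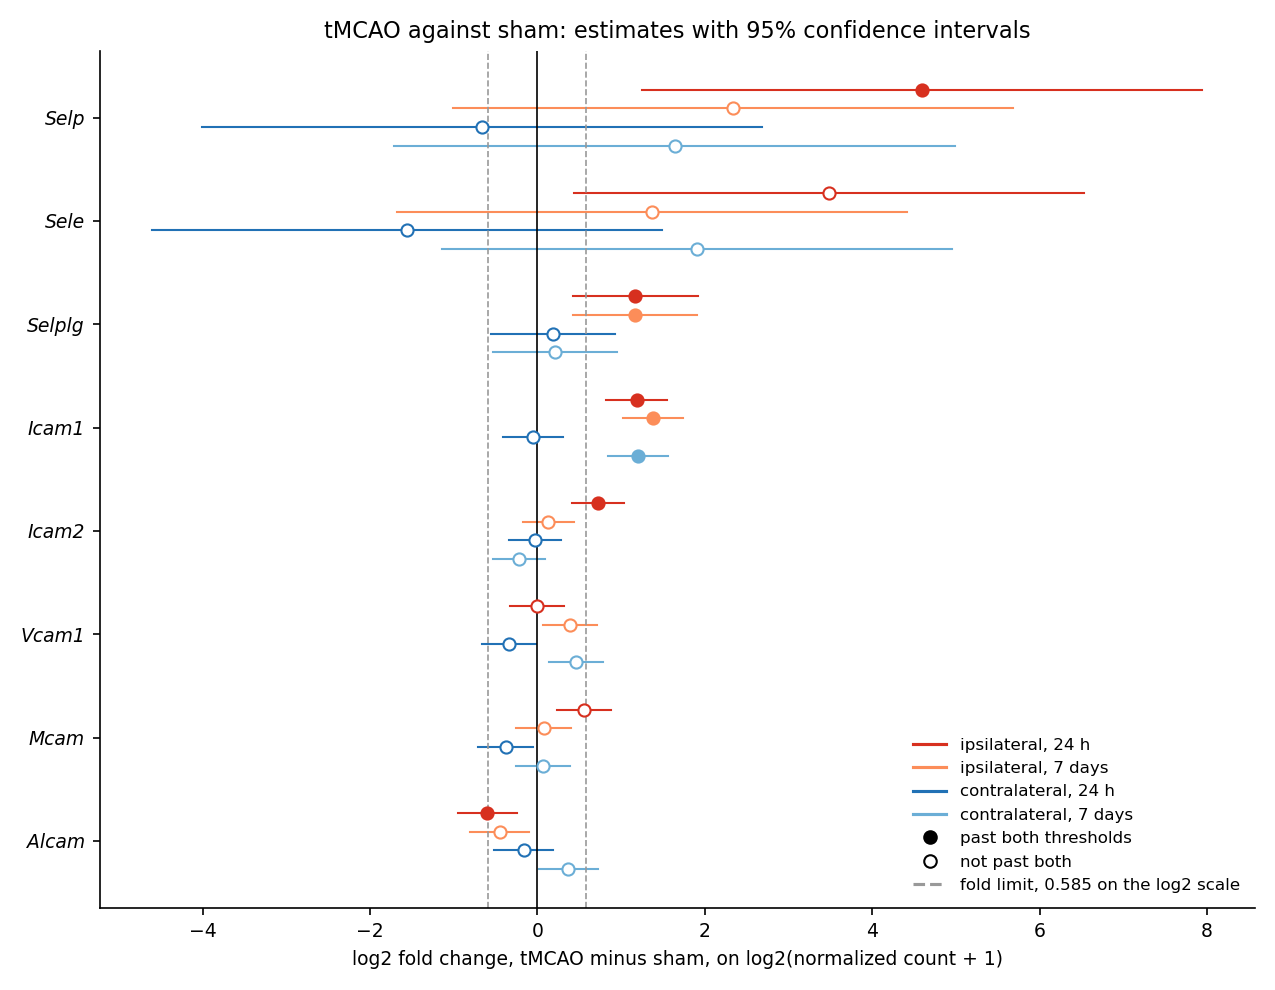
Log2 fold changes of tMCAO against sham with 95% confidence intervals for the 8 genes in the ipsilateral and the contralateral hemisphere at both time points; filled points passed both thresholds and dashed lines mark the 1.5-fold limit. Filled points are seen for Selp, Selplg, Icam1, Icam2 and Alcam at 24 h ipsilaterally, for Selplg and Icam1 at 7 days ipsilaterally and for Icam1 at 7 days contralaterally.

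By count, the ipsilateral response was narrower at 7 days. Of the 8 genes, 2 were higher than in sham (Selplg and Icam1) and none was lower, where 3.27% and 9.95% of all genes were (13.2% in all). For none of the 8 did the difference between the effects at 7 days and 24 h pass its own test, in which 8.12% of all genes passed, 2.43% upward and 5.68% downward. Set against the contralateral hemisphere in place of sham, which reuses the tMCAO ipsilateral libraries, 5 of the 8 were higher at 24 h (Selp, Sele, Selplg, Icam1 and Mcam), where 8.51% of all genes were and 5.14% were lower (13.6% in all). Selp reached a log2 fold change of 5.20 ± 1.60 (SE, adjusted p = 0.0227) there, Selplg 1.30 ± 0.36 (adjusted p = 0.0112) and Icam2 0.57 ± 0.15, just under the fold limit with an adjusted p of 0.00856. Those of Selp and Selplg turned on single libraries: the adjusted p of Selp was 0.112 without contralateral replicate 3, 0.0608 without ipsilateral replicate 1 and 0.0619 without ipsilateral replicate 2, and that of Selplg was 0.0549 without contralateral replicate 2 and 0.0773 without ipsilateral replicate 1. At 7 days Selplg alone was higher (1.26 ± 0.36, adjusted p = 0.0169), where 3.03% of all genes were and 9.98% were lower (13% in all), and it lost the call without contralateral replicate 3 (0.0609), ipsilateral replicate 1 (0.0753) or ipsilateral replicate 2 (0.0521) and with endothelial centring (0.0646). Alcam was lower without overlap by -0.57 ± 0.17 at 7 days, with an adjusted p of 0.0238 and a size just under the limit. The contralateral libraries of that comparison, at 579, 527 and 550 counts of Alcam, were themselves all above the sham contralateral ones at 494, 410 and 384 (0.37 ± 0.17, adjusted p = 0.461).

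Among the control groups no further member was regulated. In the contralateral hemisphere at 24 h none of the 8 passed, as none of all 15982 genes did with limma (405, or 2.53%, had an unadjusted p under 0.05, and the libraries of 8.2% did not overlap). Between the hemispheres of sham mice none of all genes passed either, with 367 (2.3%) at 24 h and 359 (2.25%) at 7 days at an unadjusted p under 0.05. From 24 h to 7 days none of the 8 was regulated in the sham ipsilateral libraries, where 0.476% of all genes were (0.3% higher and 0.175% lower), or in the sham contralateral ones, where 0.332% were, and none of all genes was in the tMCAO contralateral ones (2637, or 16.5%, at an unadjusted p under 0.05). In the sham contralateral libraries Icam1, Vcam1, Mcam and Alcam were nevertheless lower at 7 days without overlap, and Icam2 was higher. These were 4 and 1 of the 8, where the libraries of 17.6% of all genes did not overlap in either direction. Without overlap, 1 was higher in the sham ipsilateral libraries (22% of all genes in either direction) and 3 in the tMCAO contralateral ones (16%). For both selectins these comparisons could show large changes alone, since the SE of a log2 fold change was 1.60 for Selp and 1.46 for Sele, against 0.15 to 0.17 for Icam1, Icam2, Vcam1, Mcam and Alcam.

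Many of the partners of these molecules on the leukocyte side rose at 24 h. Of 19 receptors and ligand-making enzymes on a list made for this purpose 16 passed the filter, and 8 of them were higher and 1 lower than sham in the ipsilateral hemisphere at 24 h, where 10% and 8.23% of all genes were, with a median log2 fold change of 0.87 where the median of all genes was -0.02. Itgal, the alpha chain of LFA-1, rose from 46 ± 26.5 normalized counts in sham to 316 ± 106 after tMCAO (SD, n = 3 each), a log2 fold change of 2.85 ± 0.46 (SE, adjusted p = 0.000157). Itgam, that of Mac-1, rose from 34.7 ± 11.1 to 226 ± 28.8 (2.71 ± 0.26) and their common beta chain Itgb2 from 167 ± 49.6 to 775 ± 182 (2.23 ± 0.23). Cd44, a ligand of E-selectin, rose from 87.3 ± 37.9 to 580 ± 175 (2.77 ± 0.53). Neither chain of the VCAM-1 receptor was regulated: Itga4 went from 460 ± 60.0 to 597 ± 147 (0.35 ± 0.20, adjusted p = 0.182) and Itgb1, which many cell types carry, from 17005 ± 385 to 21348 ± 2026 (0.32 ± 0.10, adjusted p = 0.0245, under the fold limit). Glg1, another E-selectin ligand, stood at 3476 ± 85.8 and 2976 ± 199 (-0.23 ± 0.11, adjusted p = 0.13). The single partner regulated downward was Gcnt1, an enzyme that builds selectin ligands (-0.69 ± 0.24, adjusted p = 0.0362), with overlapping libraries. It lost the call without sham replicate 1 (0.104) or 2 (0.0914), without tMCAO replicate 1 (0.149) or 2 (0.143) and with endothelial centring (0.11). Cd6, the receptor of ALCAM, had 0 to 9 counts in every library and was not tested. The log2 values of the neutrophil and monocyte markers averaged 2.75 higher in the same comparison. The part of these cells, or of any other cell type, in the rise of the partners was not tested.

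At 7 days 6 of the 16 partners were higher and none was lower, where 3.27% and 9.95% of all genes were, with a median log2 fold change of 0.28 against 0.02 for all genes. Itgax rose most, from 25.7 ± 7.77 normalized counts in sham to 86.7 ± 16.3 after tMCAO (1.75 ± 0.31 SE, adjusted p = 0.000445). Itgal (1.56 ± 0.46), Itgam (1.02 ± 0.26) and Itgb2 (1.52 ± 0.23) were also higher, with Itgb7 and Spn, named after their values were seen, as the remaining regulated ones, whereas Cd44 (1.24 ± 0.53, adjusted p = 0.12) did not pass. Itgb7 lost its call without sham replicate 1 (0.2) or 2 (0.0972), without tMCAO replicate 1 (0.133) or 2 (0.147), with only the compared groups in the fit (0.121) and with endothelial centring (0.123), and Spn without sham replicate 1 (0.125) or tMCAO replicate 1 (0.0547) or 2 (0.106). The count was 3 without sham replicate 1, 2 without tMCAO replicate 1 and 3 without tMCAO replicate 2.

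**Figure D5:**
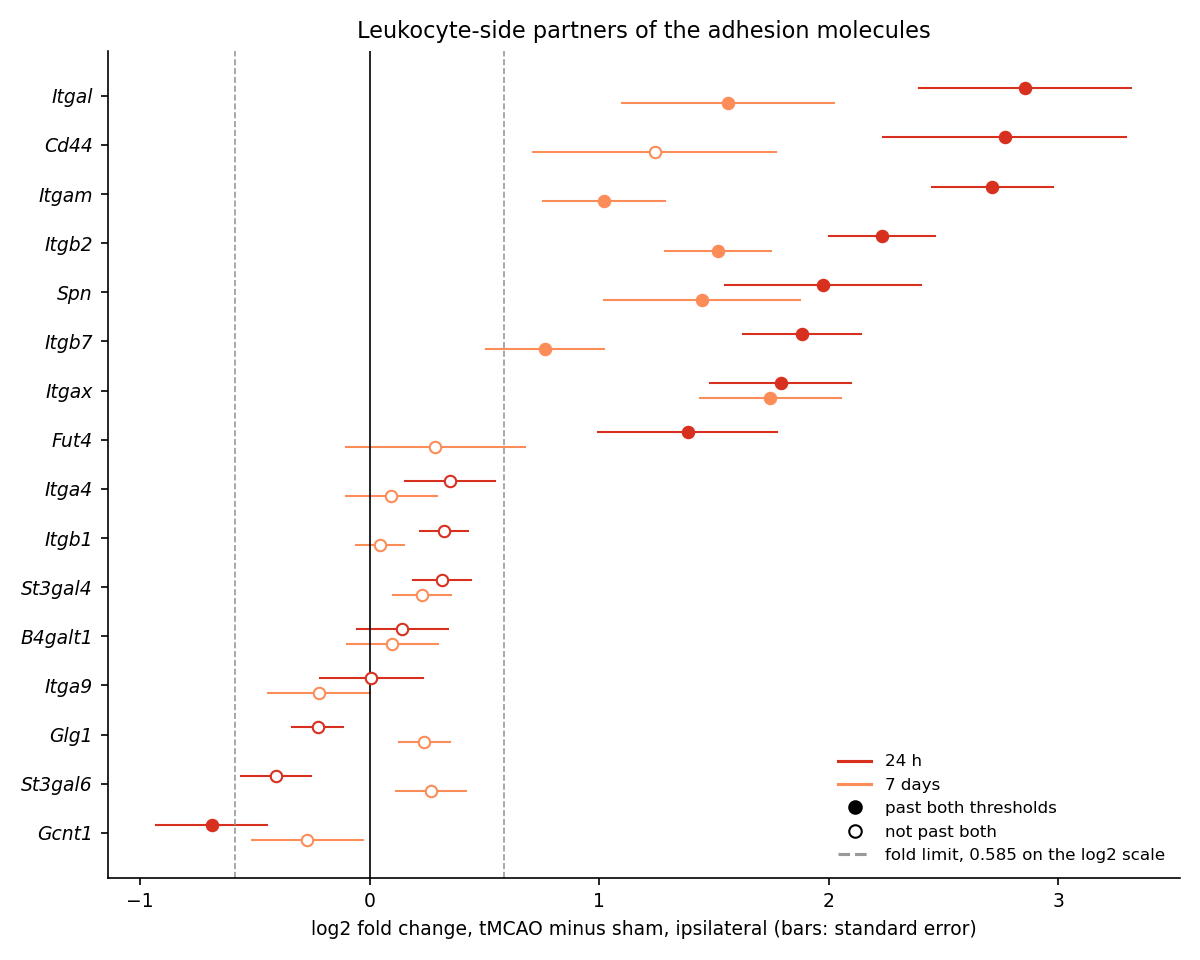
Log2 fold changes of 16 leukocyte-side partners in the ipsilateral hemisphere, tMCAO minus sham, with their standard errors, sorted by the value at 24 h; filled points passed both thresholds and dashed lines mark the 1.5-fold limit. The 8 filled red points to the right run from Itgal at 2.85 down to Fut4 at 1.39, and 6 points are filled at 7 days.

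Other molecules of the same route were looked at by list. Of 20 further endothelial and junctional molecules that were tested, 3 were higher and 1 lower at 24 h and as many at 7 days. The shares of all genes were 10% and 8.23% at 24 h, close to those of the list, and 3.27% and 9.95% at 7 days. Ackr1, a chemokine-binding receptor of venules, rose from 1271 ± 663 to 11724 ± 1317 normalized counts (SD) at 24 h (3.37 ± 0.87 SE, adjusted p = 0.00667) and from 2412 ± 1953 to 12614 ± 7917 at 7 days (2.68 ± 0.87, adjusted p = 0.0377), the latter lost without sham replicate 1 (0.0525) or 2 (0.218) or tMCAO replicate 1 (0.163) or 2 (0.0891), with only the compared groups in the fit (0.0879) and with endothelial centring (0.0564). Icam5, an ICAM of neurons, fell from 85.3 ± 6.43 to 38.0 ± 9.64 at 24 h (-1.18 ± 0.32, adjusted p = 0.00956) and from 122 ± 17.4 to 28.7 ± 13.3 at 7 days (-2.13 ± 0.32, adjusted p = 0.000103). Nectin2 was higher at both times, Emcn at 24 h and the granule protein Vwf at 7 days, names taken after the values were seen. At 24 h the rise of Nectin2 (0.63 ± 0.13) was just past the fold limit and fell under it with median centring (0.56) and without sham replicate 1 (0.55), tMCAO replicate 1 (0.57) or tMCAO replicate 2 (0.57). Vwf stood at 59641 ± 3616 and 63375 ± 9177 counts in the sham and tMCAO ipsilateral libraries at 24 h and at 33762 ± 5681 and 81924 ± 17042 at 7 days (1.27 ± 0.18, adjusted p = 5.37e-05), and its sham level was itself regulated downward between the times, by -0.83 ± 0.18 ipsilaterally (adjusted p = 0.033) and -0.88 ± 0.18 contralaterally (adjusted p = 0.0301). Vwf and Ackr1 also belong to 5 venous markers. The sum of these 5 at 24 h was 67219 to 79639 in the sham and 85582 to 103389 in the tMCAO ipsilateral libraries, with 1 of the 5, Ackr1, regulated upward. At 7 days it was 39474 to 49912 and 100128 to 147744, with 3 of the 5 regulated upward. Most of that sum is Vwf, which was not regulated at 24 h. The summed level of the 10 endothelial markers was 230856 to 262273 and 192427 to 219644 at 24 h. P-selectin and ICAM-1 are known to be richest in venules, and the part of venous vessels in their rise was not tested.

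For the lists that follow, the shares of all genes are 10% higher and 8.23% lower at 24 h and 3.27% and 9.95% at 7 days, and none of these lists had a lower member. Of 10 proteins that anchor adhesion molecules to the cytoskeleton, 1 was higher at 24 h, the same share as of all genes, Msn, the moesin that binds the tails of ICAMs (1.11 ± 0.16 SE, adjusted p = 6.08e-05), and none at 7 days. That count is set by the fold limit, since 5 were higher and 1 lower without it and 4 were higher with endothelial centring. Of 6 tested proteases that shed such molecules 3 were higher at 24 h, led by Adam8, which rose from 55.7 ± 50.01 to 486 ± 109 normalized counts (3.45 ± 0.66, adjusted p = 0.000678), with Mmp9 and Adam15, the latter lost without sham replicate 2 (0.0694) or tMCAO replicate 2 (0.0995) and, by size, with median centring (0.56), and none at 7 days. Mmp9 was also higher at 7 days without sham replicate 3 (1.75, adjusted p = 0.0354) or tMCAO replicate 3 (1.91, adjusted p = 0.0135). Of 7 tested inducing cytokines and receptors 2 were higher at 24 h, Il1b with 22 ± 19 and 453 ± 233 counts (4.67 ± 0.93, adjusted p = 0.001) and Tnfrsf1a, and none at 7 days. The call of Tnfrsf1a was lost without sham replicate 1 (0.156) or 3 (0.053) or tMCAO replicate 1 (0.0898) or 2 (0.109). Tnf and Il1a stayed at or under the limit on low values. Of 14 NF-kappaB factors and related regulators 4 were higher at 24 h (Nfkbie, Nfkb2, Relb and Nfkbib). That number was 2 on leaving out sham replicate 1 or 2 or tMCAO replicate 1 or 2, when Nfkb2 and Relb lost their calls. Members of these lists other than the leading ones were named after their values were seen. Nfkbie, an inhibitor of NF-kappaB and itself one of its targets, rose most, from 116 ± 34.9 to 233 ± 24.5 counts (1.05 ± 0.25, adjusted p = 0.00425), and was the single one at 7 days (0.87 ± 0.25, adjusted p = 0.0201), a call lost without sham replicate 1 (0.0512) or 2 (0.131) or tMCAO replicate 1 (0.107), with only the compared groups in the fit (0.102) and with endothelial centring (0.0649).

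Across the 24 libraries the nearest neighbours of the 8 genes among the other genes, by the Pearson correlation of log2 values, were different except for Casp4. The inflammatory caspase Casp4 was nearest to both Selp (r = 0.940) and Sele (r = 0.916), followed by Csf2rb2 for Selp (0.923) and Lcn2 for Sele (0.902). Sema4d (0.927) and Lgmn (0.912) were nearest to Selplg, Vars (0.905) and 2200002D01Rik (0.904) to Icam1, and Psme2 (0.915) and Psme1 (0.901), the 2 subunits of one proteasome activator, to Icam2. Fstl1 (0.901) and Trip6 (0.898) were nearest to Mcam, Fzd2 (0.908) and Adcy5 (0.899) to Alcam, while Vcam1 had no comparably close neighbour, with Lmo1 at 0.793 and Pcdhb7 at 0.718. All points share the group structure of the study, so these are descriptions of pattern. Among the 8 themselves the selectin pair was closest, and Icam1 followed Selplg (r = 0.756) and Selp (r = 0.731) over the 24 libraries but with r = 0.243 and 0.450 over the 18 libraries outside the tMCAO ipsilateral groups.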

How the data were processed

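Strand-specific mRNA libraries of pooled microvessels were sequenced on a NextSeq 500. According to the submitters' processing notes and the methods, reads were checked with FastQC, aligned to mm10 with STAR, counted per gene with featureCounts 1.5.1 and normalized with DESeq2. For STAR (2.5.2b) and DESeq2 (1.6.2) the versions are those of the submitters' processing notes, and the authors' methods name other versions of both. Libraries that the authors judged outliers were removed before deposit. The deposited values are DESeq2-normalized counts that the authors rounded to whole numbers, treated here as a score and not as raw counts, so no count model was run and the sequencing depth behind a value is unknown. Counting across shared or antisense reads was not re-examined.

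Values were tested as log2(value + 1), a pseudocount of 1 that understates changes of low genes, with limma 3.58.1 with trend in R 4.3.3, over 15982 genes with a mean above 5. All 24 libraries of the 8 groups shared 1 spread, without a replicate block, and p-values were adjusted over all tested genes, 2-sided. The thresholds (adjusted p 0.05, 1.5-fold) are those of the study. There were 14 contrasts, 1 of them added later. The script was tested on simulated data. The 8 genes and the lists were chosen with earlier results of these data known. From the lists, the largest called rise and fall and 8 partners are named by rule, 11 more after their values were seen, and 1 gene is not reported here, and for likeness the 2 nearest genes. Replicates are separate pools, and p-values measure the spread between them. Same-numbered libraries deviated together in all 3 pairs between the hemispheres of sham mice (correlation of deviations 0.145 to 0.410 at 24 h and 0.325 to 0.467 at 7 days). Between the hemispheres of tMCAO mice all were positive too, but some were small (0.066 to 0.360 at 24 h and 0.059 to 0.309 at 7 days). In every other comparison the lowest was 0.00921 or less, and the labels name no shared mice. Lengths came from the GENCODE annotation and promoters from RefSeq (Python 3.11.15, pandas 2.3.3). Alternatives were another pseudocount (0.5), no filter or a mean above 20, median or endothelial centring, a fit of the compared groups alone, no fold limit, a replicate block and leaving out each library.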

Additional observations from a re-analysis of the deposited data

Results flagged for a closer look

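The tMCAO effect in the ipsilateral hemisphere differed between the time points, by the limma test of that difference, for 3 of the named genes outside the 8. For Itgam, the alpha chain of Mac-1, the effect at 7 days was lower than that at 24 h by a log2 difference of -1.69 ± 0.37 (SE, adjusted p = 0.00723). For Msn it was lower by -1.05 ± 0.23 (adjusted p = 0.00711). For Vwf, named after its values were seen, it was higher by 1.19 ± 0.25 (adjusted p = 0.00544), with a sham level at 7 days below that at 24 h.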

How the results depend on the processing

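Of 896 recomputed fold changes of the 8 genes under alternatives other than leaving out a library, 880 kept their side of the thresholds (15 of these, under their SE, changed sign), 4 lost their call and 12 gained one. Of 768 from leaving out a library, 727 kept their side (67 of these, under their SE, changed sign), 29 lost their call, 10 gained one and 2 reversed. With endothelial centring, at 24 h ipsilaterally 0 genes were lower than sham, at 7 days 1 was higher, ipsilateral against contralateral at 7 days 0 were higher and 1 was lower (Alcam, -0.71), and 1 effect, that of Icam2, was lower at 7 days than at 24 h (-0.78). This centring moved the median of all genes from -0.02 to 0.20 for ipsilateral against contralateral at 24 h. With only the compared groups in the fit, 0 genes were higher contralaterally at 7 days and 1 (Icam1) was lower in sham contralateral libraries at 7 days than at 24 h. Without a fold limit, 1 gene was lower ipsilaterally than contralaterally at 7 days (Alcam) and 1 higher at 7 days than at 24 h in tMCAO ipsilateral libraries (Vcam1).

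With the replicate block, 1 effect was lower at 7 days than at 24 h (Icam2, adjusted p = 0.0453), and with same-numbered hemispheres as the block 2 genes were higher ipsilaterally than contralaterally at 7 days after tMCAO, Selplg and Selp (2.43 ± 0.55 SE, adjusted p = 0.00584). After sham at 7 days Selp was also higher ipsilaterally in every same-numbered pair. Deviations of the hemispheres after tMCAO correlated from 0.066 to 0.360 at 24 h and from 0.059 to 0.309 at 7 days. The block changed no other call of the 8 genes. Among the other named genes, Ackr1 (0.052) and Itgb7 (0.0579) at 7 days and Nfkb2 (0.0508) at 24 h lost theirs.

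Leaving out single libraries gave 2 to 5 higher genes in both ipsilateral comparisons at 24 h (sham or contralateral as the reference), 0 to 1 lower than sham at 24 h, 1 to 2 higher and 0 to 1 lower than sham at 7 days, 0 to 1 higher and 0 to 1 lower than contralateral at 7 days, 0 to 1 higher contralaterally at 7 days, 0 to 1 higher at 7 days than at 24 h in tMCAO ipsilateral libraries and 0 to 1 effects lower at 7 days than at 24 h. Selp reversed without sham contralateral replicate 2 at 7 days, to -0.51 for tMCAO against sham contralaterally (leaving out single libraries gave -0.51 to 3.07) and -0.41 for ipsilateral against contralateral after sham (-0.41 to 3.47). Where no value shows it, the cause was not tested.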
